A study of Drosophila melanogaster with 15 samples.

Results

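R-loops called in both S2 cells and embryos of 2–3 h after egg laying (AEL), absent from the list of 14–16 h embryos, and lacking an annotated transcript on their own strand are described here. Merging same-strand peaks of the 3 deposited lists, with 1 bp of overlap as the minimum, gave 51900 regions. The members were chosen by the lists that held a peak of them and by the annotation: a region was kept where it held a peak of S2 cells and of 2–3 h embryos, held none of 14–16 h embryos and overlapped no RefSeq transcript of dm6 on its own strand. This left 2758 regions, of which 1408 overlapped a transcript on the other strand (antisense regions) and 1350 overlapped no transcript on either strand (intergenic regions). The presence of peaks and the position of transcripts are therefore given as a description and were not tested. Of the 31087 regions without a transcript on their own strand, 8.87% had this combination of sample types.

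The peaks came from strand-specific DNA:RNA immunoprecipitation sequencing (ssDRIP-seq), in which the S9.6 antibody recovers RNA:DNA hybrids and the DNA strand is sequenced. S2 is a cell line established from late-stage Drosophila melanogaster embryos, and the embryos were from Oregon R flies kept in population cages and aged to 2–3 h or 14–16 h. For each sample type 2 ssDRIP replicates, 2 inputs and 1 ssDRIP sample treated with RNase H1, the enzyme that degrades the RNA of a hybrid, were prepared. The lists hold 28464 peaks for S2 cells, 22581 for 2–3 h embryos and 28961 for 14–16 h embryos, and pool the replicates, so the values below carry no replicate error and the depth behind a peak is unknown. A peak missing from a list is therefore a peak that was not called, and regions are not replicates of a condition. Intervals are 95% Wilson intervals for shares and order-statistic intervals for medians, and they cover counting error only.

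An R-loop forms where an RNA pairs with 1 strand of the DNA and the other strand is displaced. Hybrids most often form behind RNA polymerase within the transcribed gene, so that for a hybrid on a strand without an annotated transcript the annotation names no source RNA. Purine-rich RNA paired with pyrimidine-rich DNA gives stable hybrids, and an excess of G over C or of A over T on a strand is called GC or AT skew. Between the early and the late stage the embryo passes from the onset of zygotic transcription, with segmentation genes active, to differentiated tissues.

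Sequences of short members are shown as examples of what these regions are made of: those with the longest adenine and purine runs, whether or not they reach the lengths counted below, and those with the highest GC content. They are at most 300 bp wide, overlap no UTR, are written 5′ to 3′ on the strand of the region from dm6, and the capitals mark the longest run of A or T, or of purines (A and G) or pyrimidines. Of the antisense regions, 23 met these conditions. The antisense region at chrX:4491370-4491656 (forward strand) lay in an intron of lncRNA:CR32773 and held 16 T in a row from base 143, a polyadenine tract of the other strand. The region at chr3L:18881232-18881523 (forward strand) lay in an intron of CG3961 and held 12 A in a row. The region at chr3R:15420692-15420978 (forward strand), at the edge of lncRNA:CR45911, held a purine run of 30 bases, and that at chr2L:21005293-21005574 (forward strand), in an intron of CG42238, a purine run of 23 bases.
lncRNA:CR32773 intron: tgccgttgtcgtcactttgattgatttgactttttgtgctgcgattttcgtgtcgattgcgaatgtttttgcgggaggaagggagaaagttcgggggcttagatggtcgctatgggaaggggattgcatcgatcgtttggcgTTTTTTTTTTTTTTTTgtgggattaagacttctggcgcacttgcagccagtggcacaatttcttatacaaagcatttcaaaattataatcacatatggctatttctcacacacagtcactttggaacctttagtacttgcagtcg
CG3961 intron: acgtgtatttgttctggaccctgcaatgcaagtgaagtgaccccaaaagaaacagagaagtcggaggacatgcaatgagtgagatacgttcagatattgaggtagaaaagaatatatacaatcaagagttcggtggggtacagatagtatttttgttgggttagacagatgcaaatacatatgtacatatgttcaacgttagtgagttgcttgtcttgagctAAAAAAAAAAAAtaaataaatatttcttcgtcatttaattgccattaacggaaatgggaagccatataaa
lncRNA:CR45911 edge: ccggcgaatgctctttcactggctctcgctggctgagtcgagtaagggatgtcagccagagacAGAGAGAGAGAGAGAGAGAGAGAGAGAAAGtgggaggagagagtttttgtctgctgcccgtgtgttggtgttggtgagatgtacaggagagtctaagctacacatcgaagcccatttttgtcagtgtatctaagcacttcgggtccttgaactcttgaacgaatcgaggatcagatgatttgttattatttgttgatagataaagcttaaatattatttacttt
CG42238 intron: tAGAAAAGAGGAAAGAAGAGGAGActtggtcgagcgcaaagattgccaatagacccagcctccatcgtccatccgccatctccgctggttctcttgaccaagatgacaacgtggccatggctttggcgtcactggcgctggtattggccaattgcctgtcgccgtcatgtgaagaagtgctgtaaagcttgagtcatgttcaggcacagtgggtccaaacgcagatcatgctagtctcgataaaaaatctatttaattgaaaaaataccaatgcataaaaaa
Among the antisense regions that met these conditions, the one with the highest GC content, 58.0%, lay at chr3R:3529697-3529951 (forward strand). It was in an intron of Parp1, which encodes a poly(ADP-ribose) polymerase, and held no tract.
Parp1 intron: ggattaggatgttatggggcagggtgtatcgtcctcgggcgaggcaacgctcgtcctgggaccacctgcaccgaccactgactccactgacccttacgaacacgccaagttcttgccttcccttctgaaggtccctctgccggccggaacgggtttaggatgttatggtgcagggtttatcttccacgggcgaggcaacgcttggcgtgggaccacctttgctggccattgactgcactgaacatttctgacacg

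Of the intergenic regions, 22 met the same conditions. The region at chr3L:10934839-10935102 (reverse strand) held 15 A in a row and that at chr3L:14100564-14100855 (reverse strand), which began 2510 bp upstream of Fbp1 on the strand of that gene, held 14 A in a row. The region at chr3R:8334656-8334951 (forward strand) began 863 bp upstream of Poxm, a paired-box transcription factor gene on the other strand, and its longest purine run was 19 bases. The region at chr2L:11304302-11304592 (reverse strand) had the highest GC content of these, 55.7%.
chr3L, 15 A: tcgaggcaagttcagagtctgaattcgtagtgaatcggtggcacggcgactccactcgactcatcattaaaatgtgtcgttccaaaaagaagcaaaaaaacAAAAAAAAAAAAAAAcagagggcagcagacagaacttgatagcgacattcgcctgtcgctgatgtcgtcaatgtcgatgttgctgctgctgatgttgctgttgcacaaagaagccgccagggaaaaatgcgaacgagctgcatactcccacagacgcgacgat
chr3L near Fbp1, 14 A: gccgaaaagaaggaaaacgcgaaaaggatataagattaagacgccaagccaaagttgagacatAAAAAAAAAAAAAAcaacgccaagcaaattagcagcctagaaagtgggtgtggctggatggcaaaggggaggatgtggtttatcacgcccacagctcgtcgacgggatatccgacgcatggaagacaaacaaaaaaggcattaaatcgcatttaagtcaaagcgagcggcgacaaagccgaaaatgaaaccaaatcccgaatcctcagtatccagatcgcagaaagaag
chr3R near Poxm, 19 purines: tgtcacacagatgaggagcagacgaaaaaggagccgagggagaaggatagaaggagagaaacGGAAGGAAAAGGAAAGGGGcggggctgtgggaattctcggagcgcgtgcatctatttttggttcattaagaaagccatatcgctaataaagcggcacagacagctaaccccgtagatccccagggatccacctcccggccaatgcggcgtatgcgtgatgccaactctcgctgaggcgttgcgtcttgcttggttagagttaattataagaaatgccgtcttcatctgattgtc
chr2L, highest GC: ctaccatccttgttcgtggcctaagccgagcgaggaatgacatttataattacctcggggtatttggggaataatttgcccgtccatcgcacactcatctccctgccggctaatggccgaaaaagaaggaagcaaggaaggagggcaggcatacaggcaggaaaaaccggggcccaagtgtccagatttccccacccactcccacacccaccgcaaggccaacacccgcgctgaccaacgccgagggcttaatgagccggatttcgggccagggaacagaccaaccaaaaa

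The 5253 regions with S2 and early peaks and no late peak on the same strand held the members as 52.5% (95% interval 51.2 to 53.9), and this was the lowest such share among the 7 combinations of sample types. It was 56.9% (55.7 to 58.0) for regions of both embryonic stages, 59.6% (58.4 to 60.8) for regions found in every list and 63.3% (62.5 to 64.1) for regions of S2 cells alone. The members were split almost evenly between the classes, with 51.1% (49.2 to 52.9) antisense. Antisense regions lay on the forward strand in 756 cases and on the reverse strand in 652, and intergenic regions in 675 cases on each. The members took up 9.74% of the S2 peaks and 12.3% of the 2–3 h peaks, and covered 1746680 bp.

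**Figure D1:**
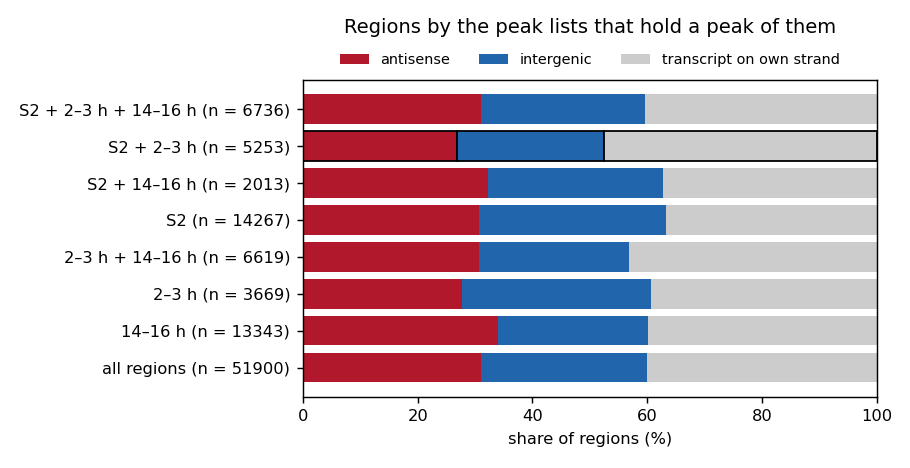
Share of regions (x axis, %) that were antisense, intergenic or overlapped a transcript on their own strand, for each combination of lists that held a peak of the region, with n the number of regions. The outlined bar holds the members, 26.8% antisense and 25.7% intergenic of 5253 regions, against 31.0% and 28.9% of all 51900 regions.

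The chromosomes held unequal numbers of members. Chromosome 3R carried 703, 2R 658, 2L 595 and 3L 548, while X carried 234, chromosome 4 carried 5 and Y carried 15, all of them intergenic. The X chromosome held 8.48% (7.50 to 9.58) of the members against 19.4% of all regions and 17.1% of the bases, which is 9.94 members per Mb against 19.5 to 26 per Mb on the other large arms. On X lay 10.5% of the S2 peaks, 20.9% of the early (2–3 h) peaks and 26.6% of the late (14–16 h) peaks. The X share was 8.94% among the regions of the same combination that overlapped a transcript on their own strand, 14.5% among regions without such a transcript found in every list and 32.1% among those found in both embryonic stages.

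Within the members, the S2 peak was usually the wider of the pair. The median region was 518 bp wide (505 to 531) in the antisense class and 539 bp (522 to 557) in the intergenic class, with extremes of 255 and 7568 bp. S2 peaks covered a median of 446 bp of the antisense and 460 bp of the intergenic regions, and 2–3 h peaks 377 and 380 bp. S2 covered more bases in 65.7% of members (63.9 to 67.4) and 2–3 h embryos in 34.2% (32.4 to 36.0), with 3 ties. In the sense regions of the same combination S2 covered more in 63.6% (61.7 to 65.4), so the order of widths was also seen there. In 98.5% of the members each list contributed 1 peak.

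**Figure D2:**
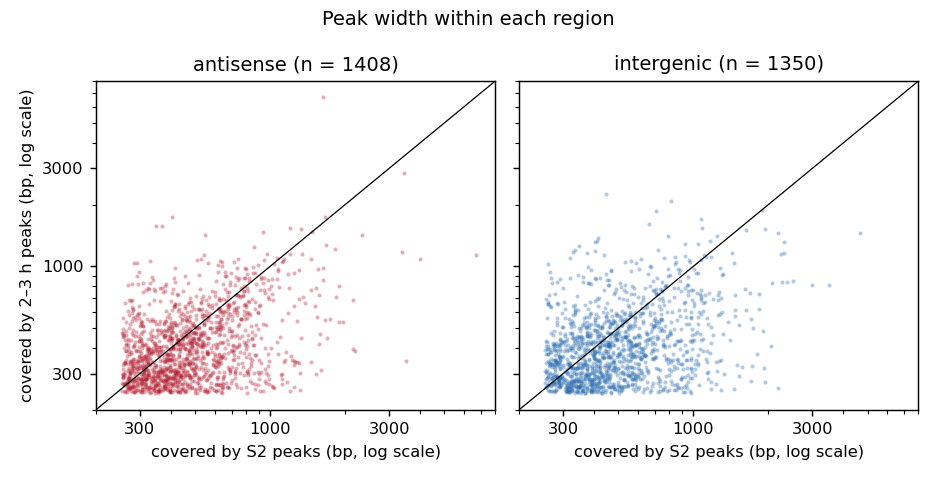
Bases covered by S2 peaks (x axis) and by 2–3 h peaks (y axis) in each antisense and intergenic region, on log scales, with a line where they are equal. Of 2758 regions, 1812 lie below the line (S2 covers more), 943 above it and 3 on it.

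The S2 and 2–3 h peaks of a member shared a median of 67.0% (66.2 to 68.0) of the bases they jointly covered, or 320 bp, and their centres lay a median of 51.5 bp apart. The 2–3 h peak lay wholly inside the S2 peak in 41.8% of members and the S2 peak inside the 2–3 h peak in 16.7%. At the edge of the rule, the smallest overlap that joined the lists was 18 bp, and 4 members shared under 50 bp, while 6 S2 regions without a transcript on their strand missed a 2–3 h peak by under 50 bp, the nearest by 10 bp. For 14–16 h embryos, 6 members lay under 50 bp from a peak on the same strand, the nearest at 17 bp, and 9 regions found in every list were joined to their 14–16 h peak by under 50 bp, the least by 3 bp. The nearest transcript on the same strand was 18 bp from a member, and the smallest overlap that placed a region in the sense class was 1 bp.

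Most members had a peak of 14–16 h embryos within a few kb on the same strand, a gap that was not measured for other regions. The median gap to the nearest was 3130 bp (2942 to 3314), with quartiles of 1352 and 7192 bp, and 201 members (7.29%) had one within 500 bp. That share was 22.3% with joining at 50% reciprocal overlap, 3.86% with peaks at least as wide as the median of their list and 3.93% without peaks that had a partner on the other strand. On the other strand, where the rule set no condition, a 14–16 h peak overlapped 7.03% of members (6.14 to 8.05), compared with 28.9% (27.3 to 30.7) for S2 peaks and 23.7% (22.1 to 25.3) for 2–3 h peaks. In the antisense class these shares were 7.88%, 29.0% and 24.2%, and in the intergenic class 6.15%, 28.8% and 23.1%. Among regions without a transcript on their strand that were found in every list, a 14–16 h peak lay opposite 58.8% (57.3 to 60.3), and among those of both embryonic stages 61.8% (60.2 to 63.3). Over all regions it was 34.9%. Sets chosen to have no late peak had low shares too, with 3.61% (2.94 to 4.41) in the sense regions of the same combination and, among regions without a transcript on their strand, 4.42% (4.02 to 4.86) in those of S2 cells alone and 8.93% (7.82 to 10.2) in those of 2–3 h embryos alone, so the low share was not particular to the members. The members' share also moved with the processing, to 14.6% where peaks were joined only at 50% reciprocal overlap and to 3.63% without peaks that had a partner on the other strand. The methods state that peaks paired on both strands with 90% reciprocal overlap were removed, and its part in these shares was not tested.

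Adenine runs were found in a smaller share of the members than of the regions that 14–16 h embryos shared. Of the members 23.5% (22.0 to 25.2) held 10 or more A in a row on either strand, against 43.1% of all regions. On the own strand the share was 19.0% (17.1 to 21.2) in antisense and 17.5% (15.5 to 19.6) in intergenic regions, and 8.10% and 6.67% held such a run on the other strand. By comparison, 67.0% (65.5 to 68.5) of the regions without a transcript on their strand from both embryonic stages and 67.3% (65.9 to 68.8) of those in every list held the run on their own strand, while 5.06% (4.63 to 5.53) of those of S2 cells alone did. The 2–3 h regions without a partner in another list stood at 16.5% (15 to 18.1). Wider regions hold more bases to search, and within members of at most 400 bp the share was 14.2% (11.6 to 17.2) against 51.3% (44.8 to 57.8) for regions of that width in every list. The share on either strand, 23.5%, depended on the peaks used. Without peaks that overlapped a peak of the same list on the other strand by 50% reciprocally, it was 42.5%. That setting also drops late peaks, so the set of members changed as well, to 3610 regions.

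Polypurine tracts, 20 or more A or G in a row other than A alone, occurred in 14.4% (13.2 to 15.8) of members on either strand and in 11.2% of all regions. They lay on the own strand in 13.6% (11.9 to 15.5) of antisense and 10.1% (8.58 to 11.8) of intergenic regions, and on the other strand in 3.48% and 2.00%. The own-strand share was 13.7% (12.5 to 15.2) in the sense regions of the same combination and 15.4% (14.4 to 16.6) in regions without a transcript on their strand found in every list. Neither kind of tract was present in 1853 members (67.2%), compared with 22.2% of the latter and 52.7% of all regions. It was 72.6% in the sense regions of the same combination. Among regions without a transcript on their strand it was 85.5% in those of S2 cells alone and 74.8% in those of 2–3 h embryos alone. The lack of tracts was thus not particular to the members. The 6-base motif GGAGGA, chosen after the values were seen, was present in the central 300 bp of 25.4% (23.8 to 27.1) of members and of 15.7% of all regions on the own strand, and in 6.31% and 4.77% on the other strand. It was found in 42.2% (40.3 to 44.2) of the sense regions of the same combination, and, among regions without a transcript on their strand, in 22.9% (22.0 to 23.7) of those of S2 cells alone, 13.1% (12.1 to 14.2) of those in every list and 5.05% (4.39 to 5.80) of those of both embryonic stages.

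**Figure D3:**
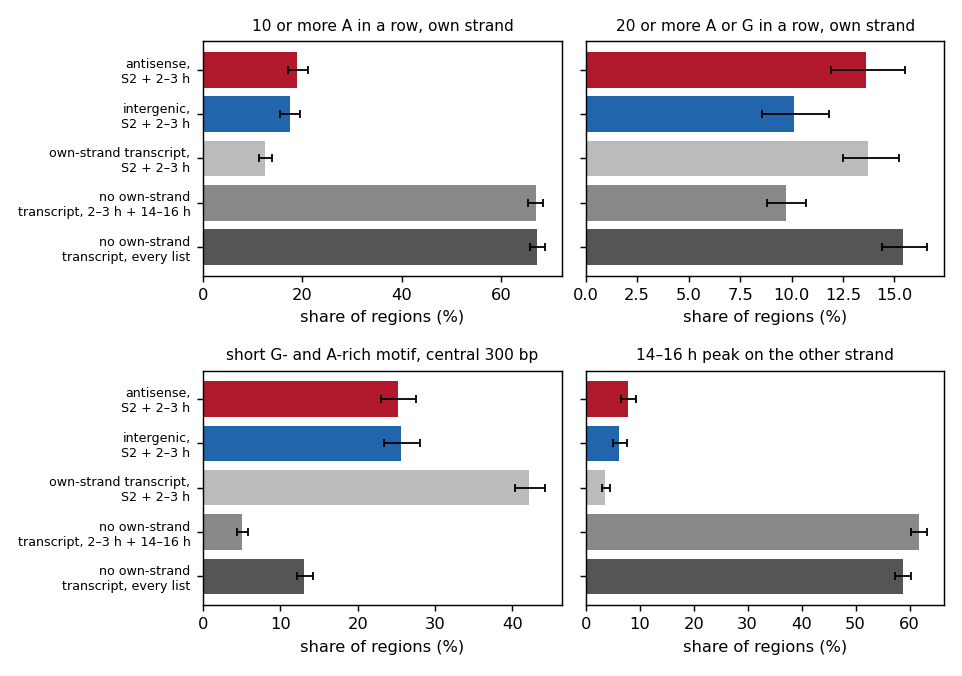
Share of regions (x axes, %) with 10 or more A in a row, with 20 or more A or G in a row, with GGAGGA in the central 300 bp, all on the own strand, and with a 14–16 h peak on the other strand. Bars stand for region sets and error bars for 95% Wilson intervals. The adenine run was found in 19.0% and 17.5% of the antisense and intergenic members, against 67.0% and 67.3% in the bottom bars.

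Although most members held neither kind of tract, the own strand of the members was purine-rich. Purines made up a mean of 55.5% ± 4.71 (SD over 2758 regions) of the own strand, and exceeded 50% in 89.2% (88.0 to 90.3) of members, against 79.9% of all regions and 89.8% (88.8 to 90.7) of those without a transcript on their strand in every list. Mean AT skew in the 50 bp before the region centre was 0.153 ± 0.0098 (SEM over regions) in antisense and 0.178 ± 0.0090 in intergenic regions. GC skew in the same window was 0.122 ± 0.0082 and 0.121 ± 0.0080. The skews fell to both sides and were between -0.011 and 0.016 in the windows farthest from the centre, 450 to 500 bp away. Regions of both embryonic stages without a transcript on their strand had an AT skew of 0.234 ± 0.0060 in the window before the centre but a GC skew of -0.010 ± 0.0049, and those in every list 0.218 ± 0.0056 and 0.055 ± 0.0046. The sense regions of the same combination as the members had an AT skew of 0.238 ± 0.0066 and a GC skew of 0.123 ± 0.0056 there. The GC skew of the members was thus not particular to regions without a transcript on their strand. GC content averaged 44.6% ± 6.61 (SD) in antisense and 43.8% ± 6.36 in intergenic regions, between the 47.3% ± 7.17 of the sense regions of the same combination and the 40.7% ± 5.24 of regions without a transcript on their strand in every list, and it was 42.1% over the 7 chromosome sequences.

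**Figure D4:**
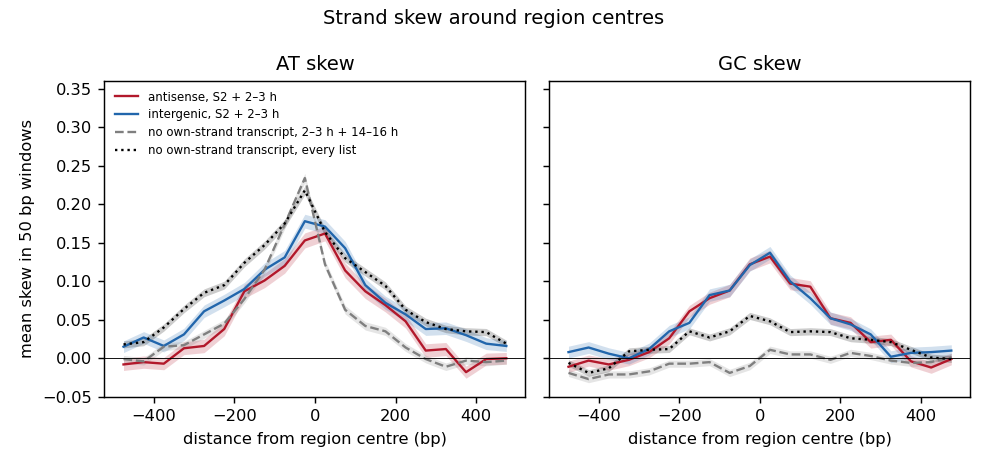
Mean AT skew and GC skew (y axis) in 50 bp windows by distance from the region centre (x axis, bp), read on the strand of the region, with bands of 1 SEM over regions. Both member classes reach 0.12 or more in GC skew at the centre, where regions of both embryonic stages are near 0. The sense regions of the same combination, not drawn, had a GC skew of 0.123 in the window before the centre.

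Most antisense regions lay inside long genes. The centre fell in an intron of the other-strand gene in 79.7% (77.5 to 81.7), in a coding exon in 8.66% (7.31 to 10.2), in a 5′ UTR in 4.40%, in a 3′ UTR in 2.91% and in a non-coding exon in 1.99%. Coding exons took 1.87% (1.37 to 2.54) of antisense regions found in every list, 2.22% (1.66 to 2.95) of those of both embryonic stages and 9.82% (8.97 to 10.7) of those of S2 cells alone. A start site of the other-strand gene was overlapped by 113 antisense members (8.03%) and an end site by 47 (3.34%). The antisense members lay in 894 genes, which is 5.11% of the 17489 genes with a transcript, and 634 of these genes held 1 member. Protein-coding genes made up 838 of them and lncRNA genes 49. The share of genes with a member rose with gene length, from 0.559% of genes up to 1 kb to 42.2% of genes of 20 to 100 kb and 78.5% of genes over 100 kb, and the genes with members had a median length of 22236 bp against 1726 bp for all. Of these 894 genes, 82.3% also held an S2 peak on their own strand, 79.6% a 2–3 h peak and 73.5% a 14–16 h peak, against 27.3%, 23.7% and 22.1% of all genes with a transcript, which are much shorter.

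The genes with the most antisense members were long, and several lay at the centromeric ends of the arms. Myo81F, a myosin gene of 1966 kb on 3R, held 48 members, all in introns. Pzl, which encodes a channel of the Piezo family, held 14 in 709 kb next to it, DIP-lambda, an immunoglobulin-superfamily gene on 2R, held 9 in 379 kb, and lovit on 3L, a transporter gene, held 7 in 434 kb. CG17684 and the transporter gene MFS17, both on 2R, held 7 each. The remaining 4 of these 10 genes lay elsewhere on the arms: robo2 (a Slit receptor in axon guidance), Lar (a receptor tyrosine phosphatase of growth cones and synapses) and ed (the adhesion molecule Echinoid) with 8 each, and heph (a polypyrimidine tract-binding protein) with 7. Per 100 kb of gene, robo2 held 19.8 members, MFS17 9.91, ed 9.48, Lar 5.50 and Myo81F 2.44.

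In robo2 (chr2L:1380086-1420453, reverse strand) the forward strand carried 19 S2, 9 early and 2 late peaks. Of the 9 early peaks, 8 joined an S2 peak and no late peak, in regions of 608 to 1962 bp, of which 6 had their centre in introns and 2 in coding exons. On its own strand robo2 held 16, 7 and 3 peaks. Lar carried 46 S2, 27 early and 27 late peaks on the strand opposite to the gene and ed 29, 31 and 20, so that in these genes members lay among peaks found at 14–16 h. In MFS17 there were 11, 11 and 3 such peaks, and in heph 40, 15 and 13. The late list was thus thin across robo2 and MFS17 and well filled across Lar and ed, among genes chosen for their number of members without a late peak.

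**Figure D5:**
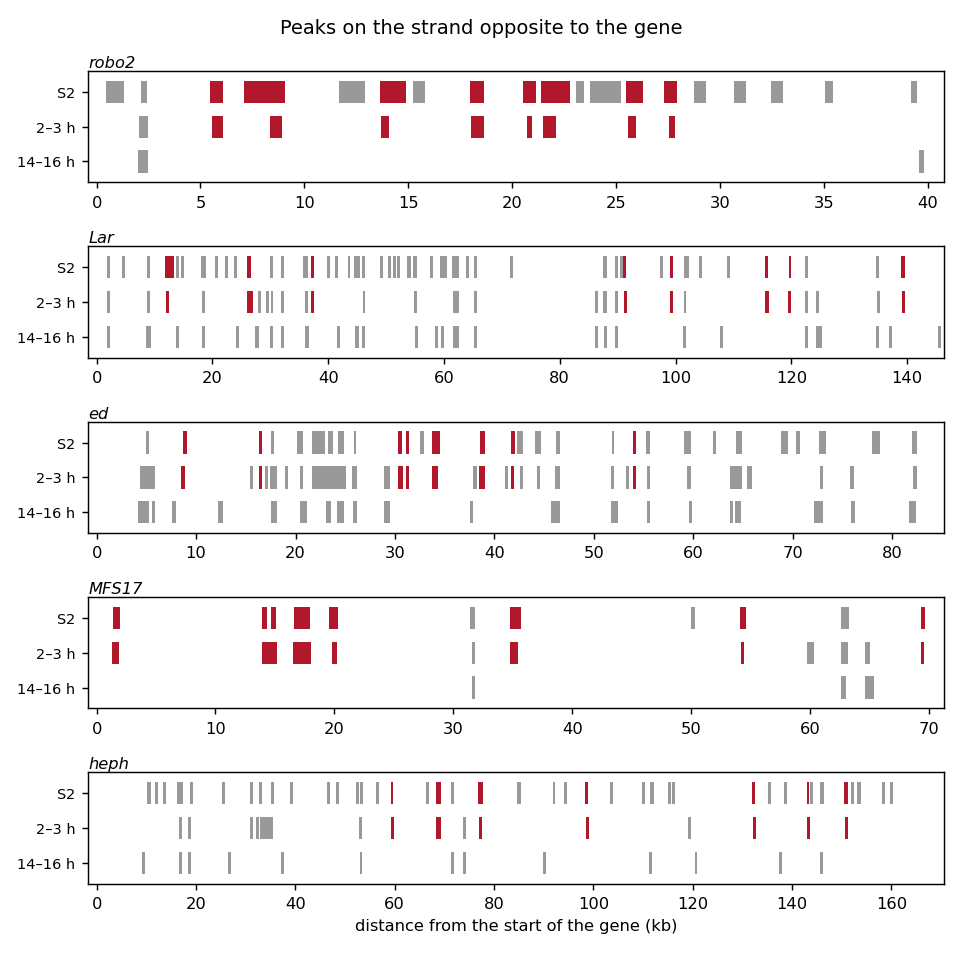
Peaks on the strand opposite to the gene in robo2, Lar, ed, MFS17 and heph, the genes under 200 kb among the 10 with the most antisense members, for each list (rows), by distance from the start of the gene (x axis, kb). Red marks peaks of members and grey all other peaks. In robo2 the members, 8 regions, lie where no 14–16 h peak was called.

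Several short genes of early patterning held a member. Of 11 gap and terminal genes found in the annotation 4 held an antisense member (36.4%, 15.2 to 64.6) and of 9 genes listed as pair-rule genes 4 (44.4%, 18.9 to 73.3), against 5.11% of all genes. No test was made, and the median lengths were 3049 and 2533 bp. The counts include the longer genes cnc (41.1 kb) and Ptx1 (17.9 kb), and Ptx1, though listed, is not a pair-rule gene. The strand opposite to cnc and Ptx1 carried 10 and 2 late peaks. Of the 8517 genes of 1 to 5 kb, 1.13 to 1.62% (interval) held a member. Over the coding exon of eve, a pair-rule gene of 1.48 kb on the forward strand of 2R, an S2 peak of 364 bp and a 2–3 h peak of 479 bp were joined on the reverse strand. No peak of any list lay on the own strand of eve, and no 14–16 h peak on either strand. The same held for hkb, a terminal gap gene of 1.63 kb, where the S2 peak was 370 bp and the 2–3 h peak 750 bp and the region covered the start site. In run the S2 and 2–3 h peaks of 620 and 571 bp lay over a coding exon, and no 14–16 h peak was called on either strand of the gene. In hb (347 and 323 bp) and kni (295 and 818 bp), gap genes, the members also lay over a coding exon, but 2 and 1 late peaks were called elsewhere on that strand of these genes. Within opa, 312 and 589 bp were covered in an intron, and 3 intergenic members had opa as their nearest gene.

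Of the 8 Hox genes, 6 held an antisense member (40.9 to 92.9% as an interval), 13 members in all, against 5.11% of all genes. Their median length was 30563 bp, and 42.2% of all genes of 20 to 100 kb held a member. Antp, which specifies thoracic identity, held 6 and Ubx 3, all in introns, and abd-A and lab held 1 each. Across Antp the opposite strand carried 16 S2, 16 early and 14 late peaks. Among segment polarity genes, with a median length of 11949 bp, 3 of 15 held members (7.05 to 45.2% as an interval), against 10.7% of all genes of 5 to 20 kb. These were the Wnt receptor genes fz2 with 6 and fz with 3, and nkd with 2, which are longer, at 94.4, 94.3 and 41.7 kb. Of 27 dorsoventral and Dpp genes, with a median length of 5134 bp, 5 held members (18.5%, 8.18 to 36.7), against 10.7% of all genes of 5 to 20 kb. Among them were pnr and ush, which encode a GATA factor and its cofactor, and the Dpp receptor gene tkv, with 2 each. Of these, ush and tkv are 64.3 and 52.4 kb long. Doc1 held 1, and no 14–16 h peak was called on either strand of that gene.

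Regulators of genome activation and chromatin were also found. Of 9 pioneer and maternal factor genes, with a median length of 12405 bp, 4 held a member (44.4%, 18.9 to 73.3). This stood against 5.11% of all genes and 10.7% of those of 5 to 20 kb. The lists share genes: opa is also counted among the pair-rule genes, and Trl among the Polycomb and trithorax group genes. In zld, which encodes the activator of the early zygotic genome, the 2–3 h peak was 1731 bp wide and the S2 peak 404 bp, in an intron. Trl, which encodes the GAGA factor, held 2 members, of which 1 overlapped a start site and had peaks of 410 bp in S2 cells and 518 bp in 2–3 h embryos. In cad the peaks were 520 and 443 bp. Of 29 Polycomb and trithorax group genes, with a median length of 7983 bp, 10 held members (34.5%, 19.9 to 52.7). The share was 5.11% for all genes and 10.7% for those of 5 to 20 kb. There were 3 members in lola and 2 each in Psc and trx. Of these, lola and trx are 61.4 and 23.5 kb long, and 42.2% of all genes of 20 to 100 kb held a member. Among 35 cell cycle genes, with a median length of 2955 bp, 5 held members (14.3%, 6.26 to 29.4), against 1.13 to 1.62% (interval) of the 8517 genes of 1 to 5 kb. That class is not the one of the hosts E2f1, CycE and grp, which are 40.6, 20.6 and 19.9 kb long. Of all genes of 20 to 100 kb 42.2% held a member, and of those of 5 to 20 kb 10.7%. E2f1, which drives S-phase genes, held 5, all in introns, grp and CycE 2 each, and stg, the Cdc25 phosphatase gene that times the early mitoses, 1 over its start site with peaks of 388 bp in S2 cells and 285 bp in 2–3 h embryos.

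Genes of later tissues held members as well, and most of them were long. Of 30 axon guidance genes 13 held members (43.3%, 27.4 to 60.8) and of 59 neuronal adhesion genes 17 (28.8%, 18.8 to 41.4), with median lengths of 32265 and 36628 bp, against 5.11% of all genes and 42.2% of those of 20 to 100 kb. Read against genes of their length, these lists did not stand above the background. After robo2 and Lar the counts were highest in Sema1a and Ten-m with 5 each and CadN with 4, while dpr21 held 3 and Dscam1 and Drl-2 held 2 each. Ten-m carried 10 S2 and 11 early but 1 late peak on the strand opposite to the gene. Of 45 ion channel genes, with a median length of 24185 bp, 7 held members (15.6%, 7.75 to 28.8). There were 6 in nAChRalpha6 and 1 each in SK, eag and Sh. Of 26 muscle genes, with a median length of 11120 bp, 8 held members (30.8%). The 95% interval began at 16.5%, above the 10.7% of all genes of 5 to 20 kb. Mef2, Tm1, Msp300 and Mhc, with 2 each, are longer, at 45.4, 30.6, 106 and 22.2 kb. Of 27 ecdysone response and nuclear receptor genes, with a median length of 23519 bp, 8 held members (29.6%, 15.9 to 48.5). Eip75B and EcR held 4 each, svp 3 and Eip63E 2. The 42.2% of all genes of 20 to 100 kb lies within this interval and above that of the ion channel genes. Of 29 hemocyte genes, a list included because S2 cells resemble blood cells, 6 held members (20.7%, 9.85 to 38.4). The median length of the list was 9334 bp. The share was 5.11% for all genes and 10.7% for those of 5 to 20 kb, which lies within that interval. The 6 include ush, which is 64.3 kb long and was also counted with the dorsoventral and Dpp genes. Among them were Pvf3, which is 59.5 kb long, with 4 and the collagen gene vkg and the engulfment receptor gene drpr with 1 each.

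The ribosomal protein and histone lists, of short genes, had shares whose intervals include that of all genes of their length. Of 92 ribosomal protein genes, with a median length of 1315 bp, 2 held a member (2.17%, 0.598 to 7.58), against 1.13 to 1.62% (interval) of the 8517 genes of 1 to 5 kb. They were RpL8, where a 723 bp S2 peak and a 287 bp early peak spanned the start site, and RpL10Aa. Of 118 genes whose symbols begin with His, with a median length of 529 bp, 2 held a member (1.69%, 0.466 to 5.97), against 0.559% of all genes up to 1 kb. They were a histone H3 copy in the repeated histone cluster, whose copies are near-identical in sequence so that the copy is uncertain, and HisT, which is no histone gene. Of 44 immune and stress genes 3 held 1 member each (6.82%, 2.35 to 18.2, against 5.11% of all genes), namely Tl, kay and puc, which are 43.4, 28.1 and 17.0 kb long.

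The intergenic members lay at all distances from genes. The median gap to the nearest transcript was 5277 bp (4731 to 5862), and 14.4% (12.7 to 16.4) lay within 1 kb, 48.8% within 5 kb and 25.4% (23.2 to 27.8) beyond 20 kb. Intergenic regions found in every list lay beyond 20 kb in 18% (16.3 to 19.8) and those of both embryonic stages in 19.7% (17.9 to 21.6). The orientations to the nearest gene took similar shares: 26.5% were upstream of it on its own strand, 24.3% upstream on the other strand, 23.8% downstream on its own strand and 25.4% downstream on the other strand. Of the 195 within 1 kb, 62 (31.8%, 25.7 to 38.6) were upstream on the same strand, 43 upstream on the other, 43 downstream on the same and 47 downstream on the other. Of the intergenic members, 158 (11.7%) overlapped another intergenic member on the other strand. No antisense member overlapped another member, which the rule nearly fixes. The strand opposite an antisense member holds a transcript, and a member may overlap none on its own strand.

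Soft-masked repeats covered a mean of 30.0% of intergenic and 22.0% of antisense members, and 20.9% of the chromosome sequences. The mean was 25.9% over all members, 27.3% over all regions and 16.2% in the sense regions of the same combination. Among regions without a transcript on their strand it was 23.8% in those of S2 cells alone and 30.2% in those of every list. In those of both embryonic stages it was 34.3%, and in those of 2–3 h embryos alone 40.7%. An annotated mobile element was overlapped by 155 intergenic members (11.5%, 9.89 to 13.3) and 62 antisense members (4.40%, 3.45 to 5.60), and by 7.43% of all regions. Over both classes, 124 of these 217 members lay on the strand of the element alone and 68 on the opposite strand alone. Over all regions the counts were 2029 and 1583 of 3856. They were 48 and 32 of 82 in the sense regions of the same combination. Regions without a transcript on their strand found in every list had 219 and 69 of 324. The counts by family that follow are of members only, without such a comparison. The retrotransposon roo was overlapped by 28 members, of which 27 touched an insertion on their own strand, gypsy8 by 15, all on their own strand, flea by 11 and mdg3 by 9, all on their own strand. For Cr1a, 12 of 14 members touched an insertion on the other strand, and for opus the 22 members were divided, 10 and 13. Copies of a family share sequence, and how the alignment assigned reads among them was not tested. INE-1, with 2234 insertions the most numerous of the elements overlapped, met 14 members.

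Members were clustered in places. The densest 50 kb window, chr2L:1766468-1817092, held 14 members, all intergenic, 8 on the forward and 6 on the reverse strand, around the gustatory receptor genes Gr22a, Gr22b, Gr22c, Gr22d and Gr22e. Over both strands it held 31 S2 peaks, 15 early peaks and 1 late peak. The window at chr2R:3743651-3794127 held 13 intergenic members and no gene, with 28, 24 and 6 peaks, and that at chrX:22020085-22069430 held 13 and no gene, with 22, 28 and 7 peaks. The windows at chr2L:17877790-17921999, which holds CG43271 and 4 lncRNA genes, and at chr2R:211311-261865, which holds no gene, had 12 each. In these 5 windows the late list was the thinnest, and the rule keeps regions without a late peak on their strand.

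The widest members showed how unequal the lists could be. The widest antisense member, chr2R:15969727-15977294, was 7568 bp long and opposite Strn-Mlck, a muscle kinase gene, and consisted of an early peak of 6698 bp and an S2 peak of 1635 bp that shared 10.1% of their joint length. At Ir41a, an ionotropic receptor gene, the order was reversed, with an S2 peak of 6698 bp and early peaks of 715 and 427 bp inside it. In lovit (3999 bp) and Tis11 (3508 bp), which encodes a factor in mRNA decay, the S2 peak also spanned the whole region, and the early peaks were 402 and 687 bp in lovit and 346 bp in Tis11. In drn the S2 peak of 3429 bp and early peaks of 1047 and 1788 bp shared 82.7%. The widest intergenic members lay opposite each other on Y, chrY:3503181-3507823 on the reverse strand (4643 bp) and chrY:3504336-3507821 on the forward strand (3486 bp), between Mst77Y-13 and Pp1-Y2. In both the S2 peak spanned the region, and the early peaks were 560 and 897 bp on the reverse and 807 bp on the forward strand. The next were 2997 bp at chrX:23347016-23350012, between 2SrRNA:CR45864 and mir-10404-5, 2506 bp at chr2R:1504326-1506831, between l(2)41Ab and Maf1, and 2429 bp at chrX:54496-56924, with lncRNA:CR40469 as the neighbour to the right. In the last the early peak was the wider, 2240 bp against 445 bp.

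In other members the lists coincided nearly to the base. The intergenic region at chr2L:23149748-23150185 had an identical S2 and early peak of 438 bp, between lncRNA:CR43242 and CG12567. At chr3L:23515407-23516059, between ND-MLRQ and AGO3 and over insertions of GATE, HMS-Beagle and gypsy10, the peaks were 652 and 653 bp. In the antisense class the best were in an intron of mtgo (470 and 466 bp, 98.3% shared), over a coding exon of CG10341 (500 and 508 bp, 98.0%) and in an intron of Myo81F (473 and 483 bp, 97.9%). The nearest 14–16 h peak on the same strand was 408 bp away at mtgo, 2330 bp at CG10341 and 1228 bp at Myo81F.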

How the data were processed

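The ssDRIP-seq peak list of each sample type was used. The authors trimmed reads with Trimmomatic, aligned them to dm6 with Bowtie, separated strands with SAMtools and called peaks with MACS2 on pooled replicates, then removed peaks paired on both strands with 90% reciprocal overlap. As control, the methods give the sample pretreated with RNase H1, while another passage gives the inputs too, with peaks kept where both calls overlapped. Which of these the deposited lists hold is not settled here. The deposited values are other than counts: start, end and length of a peak in bp, with strand and no height, score or p-value, so the depth and the precision behind a peak are unknown. Starts were converted to counting from 1, and all peaks ended within the dm6 sequences of RefSeq. Transcripts (35289, of 17489 genes) came from the RefSeq annotation, and 307 genes without a transcript did not count. The strand is the one written in the lists.

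Members, gene lists and tests were chosen with earlier results of these data known. With 1 pooled list per sample type no test over samples exists, and none was made over regions. Named genes were the 10 with the most antisense members, those at the 5 widest members of each class, those at the 3 members of each class whose peaks coincided best, up to 4 of each of 17 gene lists, and those in the densest 50 kb windows. Sequences were taken from members of at most 300 bp outside 2R and outside UTRs: per class, 2 with the longest adenine run, 2 with the longest purine run and 1 with the highest GC content. For 1 intergenic member that these rules chose, the result is not reported here. Alternatives changed the overlap that joins peaks, the transcripts, the peaks and the tract lengths. All 8 checks of the functions on simulated data passed. Scripts ran under Python 3.11.15 with SciPy 1.17.1, NumPy 2.4.6 and, for plots, matplotlib 3.10.9.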

Additional observations from a re-analysis of the deposited data

How the results depend on the processing

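The lists pool the replicates, so no replicate could be left out. No paired analysis was possible because no result comes from a test over samples. The 12 results were recomputed under 14 other settings, of which the Ensembl transcripts were chosen after seeing the data, and 72 values stayed within their interval or within 1.5 times the count while 42 moved. The cause was not tested except where the setting itself sets it.

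The number of members moved with peaks at least as wide as the median of their list, to 1294, since this setting drops about 1 in 2 peaks. Under it 50.2% of the regions of this combination lacked a transcript on their strand, the median width was 722 bp, 83.4% of antisense members were centred in introns, 11.2% of intergenic members lay within 1 kb of a gene, 35.9% held a polyadenine tract and 17.3% a polypurine tract. Without peaks that had a partner on the other strand, a setting that keeps 16059 of 28961 peaks of 14–16 h embryos, the share without a transcript on their strand was 53.9%, the antisense share 53.3%, the width 510 bp, the share opposite a 14–16 h peak 3.63%, the intron share 84.0%, the share within 1 kb 17.3% and the polyadenine share 42.5%. With 50% reciprocal overlap to join peaks the width was 490 bp, the share opposite a 14–16 h peak 14.6% and the polyadenine share 28.0%. The share without a transcript on their strand was 53.9% where the region centre had to lie in the transcript, 54.8% with mRNA alone, 50% with transcripts extended by 500 bp and 49.0% with Ensembl transcripts, which include 5889 of mobile elements. With mRNA alone the antisense share was 48.6% and the share within 1 kb 10.5%. With Ensembl transcripts these were 55.0% and 19.6%, and the intron share was 74.5%. Within 5 kb of a gene lay 48.8%. The polyadenine share was 37.3% for 8 or more A, 10.9% for 13 or more and 15.8% in the central 300 bp, and the polypurine share was 42.7% for 15 or more bases and 9.25% in the central 300 bp.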

Other observations

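The RefSeq annotation gives pseudogenes without a transcript, and 8 members overlapped 7 of them on their own strand. A histone pseudogene of chromosome 2L, His-Psi:CR33867, was overlapped by 2 of these members, an intergenic one of 569 bp and the antisense one at a histone H3 copy. The others met CR40461, CR43281, CR14117, CR12460, CR41320 and CR17438. In 1 further case, CR42490, the pseudogene lay on the other strand.

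The genes nearest to the most intergenic members, named after the values were seen, were DIP-lambda with 28 and MFS17 with 25, both on 2R and both also among the genes with the most antisense members. CG40813 on X had 23 and RYa on 2R, which encodes a neuropeptide, had 19. The lncRNA flam on X, the source of piRNAs against gypsy-family retrotransposons, was the nearest gene of 12.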
